A study of Mus musculus with 6 samples.

Results

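Cytosolic ribosomal protein genes were examined in mouse medulloblastomas with and without Crebbp. The members were all genes whose only platform symbol began with Rpl, Rps or Rplp and a number, without the Rps6k kinases, and they came to 83 of the 22180 genes tested. Where a gene had several array features, the one with the highest mean over the 6 arrays stood for it. The rule thus selected members on their symbols and features on mean level, the only measured value it used. The choice of these genes was made with earlier results of these data known. Of the 83, 35 encode proteins of the large ribosomal subunit, 22 encode proteins of the small subunit, 9 are retrogene-like or diverged paralogues and 15 carry a pseudogene symbol. The remaining 2, Rps19bp1 and Rps23rg1, match the symbol pattern but do not encode ribosomal subunits. Another 19 of the 76 canonical genes in the subunit lists had no feature with a symbol of its own, and 12 of these had features shared with other genes.

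Ribosomal proteins form the large subunit, which joins amino acids into the growing chain, and the small subunit, which reads the mRNA. They are made in matched amounts from many scattered genes, and their mRNAs begin with a pyrimidine stretch, the terminal oligopyrimidine (TOP) tract, through which the kinase complex mTORC1 and the RNA-binding protein LARP1 set their translation. Their supply follows cell growth, MYC proteins raise their transcription, and in granule neuron progenitors Mycn is the MYC gene downstream of Sonic hedgehog. Each ribosomal protein gene has left processed copies across the genome, so that array probes for a gene can also read a copy.

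SmoM2, an active form of the hedgehog receptor component Smoothened, drove all tumours. In the wild type group (labelled Math1Cre::SmoM2Fl/+, 3 tumours) Crebbp was intact, and in the knockout group (labelled Math1Cre::CrebbpFl/FlSmoM2Fl/+, 3 tumours) both Crebbp alleles were floxed. In both groups a tamoxifen-dependent Cre under the Math1 promoter acted in the granule neuron lineage, so cells of other lineages in the tumour keep their Crebbp and carry no SmoM2. Cre was switched on with 1 mg tamoxifen, given to every animal at postnatal day 5, and those with clear growth gave tumour tissue at postnatal day 60, although the age label reads postnatal day 5. Total RNA of each tumour went onto 1 Affymetrix array, and 3 arrays a group set the limit of precision. Nothing in the labels says that tumours of a group came from separate litters, so p-values measure the spread between these samples only.

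Levels are log2 values made by RMA, and changes are knockout minus wild type on that scale. Crebbp lay between 11.70 and 11.80 in wild type and between 11.20 and 11.34 in knockout tumours, a change of -0.50 (SE 0.09) that missed the threshold (limma adjusted p = 0.0948). Xist was low in all wild type and high in all knockout arrays, and the reverse held for Y-linked genes, so every comparison here sets arrays with a female pattern against arrays with a male one, and sex and genotype cannot be told apart. The 12 values of Xist in wild type and of Kdm5d, Eif2s3y and Uty in knockout arrays served as a scale for absent transcripts, from 4.31 to 5.74. The medians of the 6 arrays lay between 6.914 and 7.002. All 12 listed markers of granule neuron progenitors, the cells such tumours grow from, had mean levels above that scale, from 9.48 to 12.8. In bulk tumour RNA fewer cells of a type and less RNA per cell cannot be told apart.

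The start regions of Rpl32l, Rps6 and those of the 5 genes of each subunit with the smallest p that had an entry in the table (Rpl3 and Rpl7 had none) are shown here because the pyrimidine tract at the start is the feature by which ribosomal protein mRNAs are known. Each runs from 30 bases before the annotated start to 20 bases from the start on, in RefSeq's GRCm38.p6 annotation, and capitals mark an unbroken run of at least 6 C or T that touched the 5 bases on either side of the start.
Rpl32l: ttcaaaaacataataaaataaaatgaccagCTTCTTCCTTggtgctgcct
Rpl27a: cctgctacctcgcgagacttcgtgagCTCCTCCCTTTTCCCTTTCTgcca
Rpl27: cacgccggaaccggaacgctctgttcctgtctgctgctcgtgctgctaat
Rpl39: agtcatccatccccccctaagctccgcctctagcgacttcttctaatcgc
Rps18: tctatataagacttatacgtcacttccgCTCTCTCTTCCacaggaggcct
Rps26: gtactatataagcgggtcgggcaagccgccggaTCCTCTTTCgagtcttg
Rps3a1: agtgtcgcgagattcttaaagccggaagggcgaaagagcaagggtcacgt
Rps10: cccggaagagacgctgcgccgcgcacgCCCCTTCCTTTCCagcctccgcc
Rps28: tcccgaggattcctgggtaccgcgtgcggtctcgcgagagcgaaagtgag
Rps6: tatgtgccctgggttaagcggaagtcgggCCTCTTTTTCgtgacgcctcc

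The windows on the plus strand were chr10:20208409-20208458 (Rpl32l), chr7:109519165-109519214 (Rpl27a) and chr11:101442215-101442264 (Rpl27). Those on the minus strand were chrX:37085203-37085252 (Rpl39), chr17:33955646-33955695 (Rps18), chr10:128626487-128626536 (Rps26) and chr3:86142649-86142698 (Rps3a1), followed by chr17:27635225-27635274 (Rps10), chr17:33824543-33824592 (Rps28) and chr4:86857348-86857397 (Rps6). The run of Rpl27a, 20 bases long, was the longest of these, and Rpl27, Rpl39, Rps3a1 and Rps28 had no run of 6 or more at the annotated start. Among the members, 53 of 83 had an entry in the start table, 44 of them canonical subunit genes with 51 starts. A run of at least 6 was present at 22 of these 51 starts (43.1%) and at 20.2% of all 32851 starts in the table, and one of at least 8 at 35.3% against 9.38%. The motif CCGGAAG, read on both strands in the 250 bases before and 50 after each start, was in 39.2% of the canonical windows and 8.86% of all windows. GGGCGG was in 51.0% against 35.7%, TATAAA in 7.84% against 13.6% and AAGATGGC in 3.92% against 2.75%. These are letter matches, and annotated starts can miss the base at which transcription begins.

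The comparison asks how ribosomal protein mRNAs differ between tumours with and without Crebbp, a histone acetyltransferase and transcriptional co-activator. Few of them passed the threshold, and with 3 arrays a group this does not show that the others were unchanged. Of the 57 canonical subunit genes 0 passed the threshold (limma, adjusted p of 0.05 over all genes), and of all 83 members 1 passed, the paralogue Rpl32l, against 0.207% of all genes tested. Rpl32l rose, as did 0.126% of all genes, and 0 members fell, against 0.0812% of all genes. An unadjusted p under 0.05 was reached by 7 of the 57 canonical genes (12.3%) and by 12 of the 83 members (14.5%), against 13.8% of all genes. At that p, 11 of the 83 members were higher in knockout tumours, against 1605 of all 22180 genes (7.24%). Lower was 1 of the 83, against 1445 of the 22180 (6.51%). Knockout and wild type values stood fully apart in 10 of 57 canonical genes and 16 of 83 members (19.3%), against 19.6% of all genes. Knockout values all lay higher in 13 of the 83 members, against 2258 of the 22180 genes (10.2%). They all lay lower in 3 of the 83, against 2091 of the 22180 (9.43%). The totals stood near the background of the array, while the split by direction leaned further towards higher values than over all genes, which was not tested. The adjusted p of canonical genes was lowest for Rps18, at 0.228.

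Most changes of canonical genes were small in size, as they were over all genes. Their log2 changes ran from -0.93 (Rps18) to 0.60 (Rpl3), with 2 of 57 over 0.5 in size (3.51%, against 4.27% of all genes). The 95% interval of the change lay within 0.5 of 0 on either side for 42 of the 57 genes and within 1 for 55. Over all genes tested this held for 15568 and 21373 of 22180. The SE had a median of 0.11 in these genes and 0.12 over all genes.

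The direction of these small changes was mostly upward. Of the 57 canonical genes 46 had a positive log2 change (80.7%), against 50.9% of all genes, with a median of 0.09 against 0.00 over all genes. The median was 0.07 in the large subunit (29 of 35 positive) and 0.09 in the small subunit (17 of 22 positive). When array medians were set equal the split was 37 of 57 positive (64.9%, all genes 44.2%), and after a further quantile normalisation it was 40 of 57 (70.2%, all genes 49.5%). Genes of the ribosome vary together between arrays and are not independent, and no test was made over the list.

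**Figure D1:**
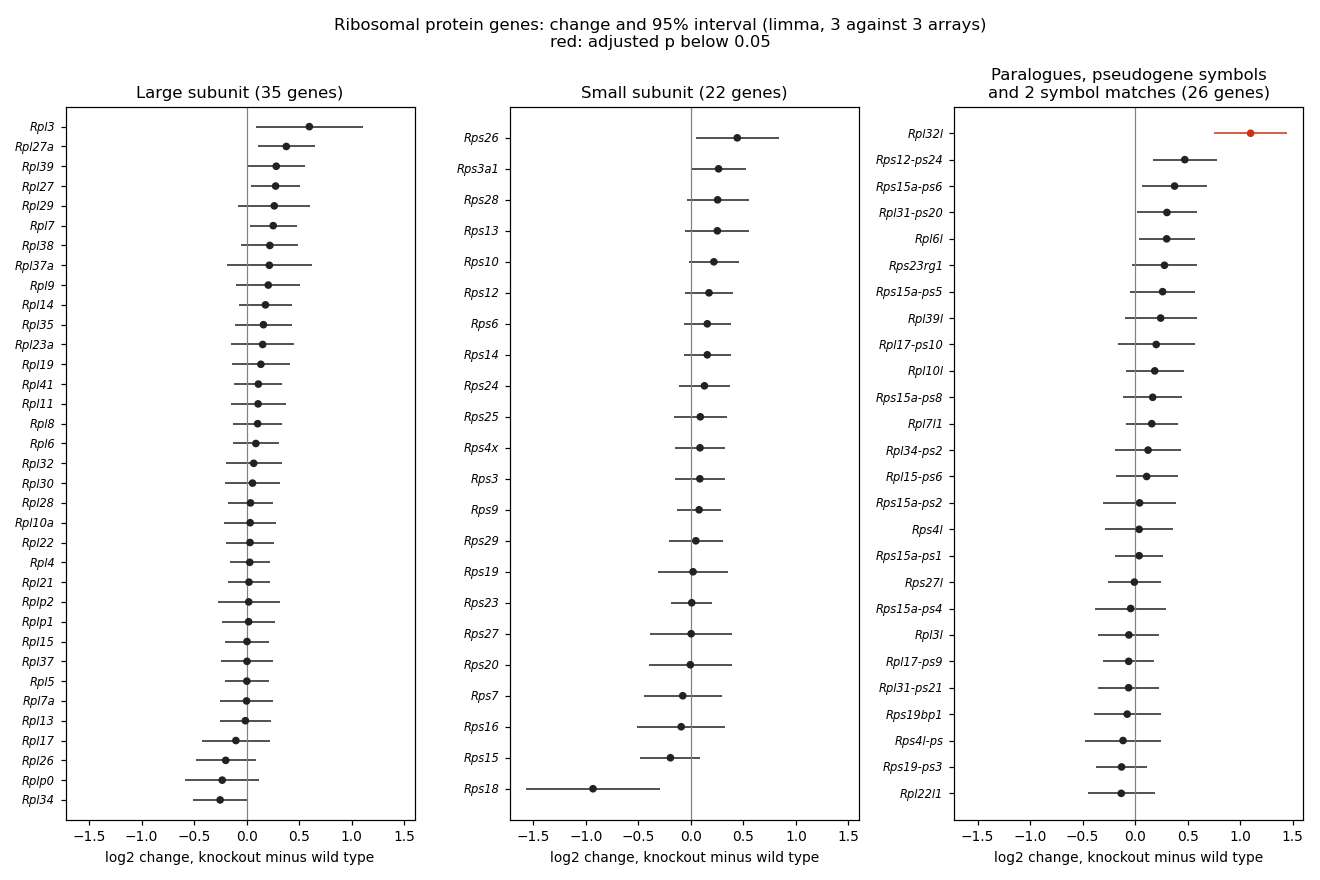
Log2 change, knockout minus wild type (horizontal axis), with its 95% interval from limma for each of the 83 members, 3 arrays a group, in 3 panels by class. The interval of Rpl32l, in red, is the only one past the adjusted threshold, Rps18 lies lowest at -0.93, and most other canonical genes lie just to the right of 0.

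The tumours of a group differed among themselves about as much as the groups did. The median deviation of the 57 canonical genes from their own means was -0.11, -0.06 and 0.02 in wild type replicates 1 to 3 and 0.14, 0.06 and -0.00 in knockout replicates 1 to 3. Wild type replicate 3 thus lay above knockout replicate 3, and the groups overlapped. Knockout replicate 1 gave the highest of the 6 values for 27 of the 57 genes, and 48 of the 57 lay above their own mean in it. The lowest value lay in wild type replicate 1 for 19 genes and in knockout replicate 3 for 17. The 31 canonical genes with a mean level of at least 11 had a median change of 0.11 (28 positive), and the 26 dimmer ones had 0.03 (18 positive).

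**Figure D2:**
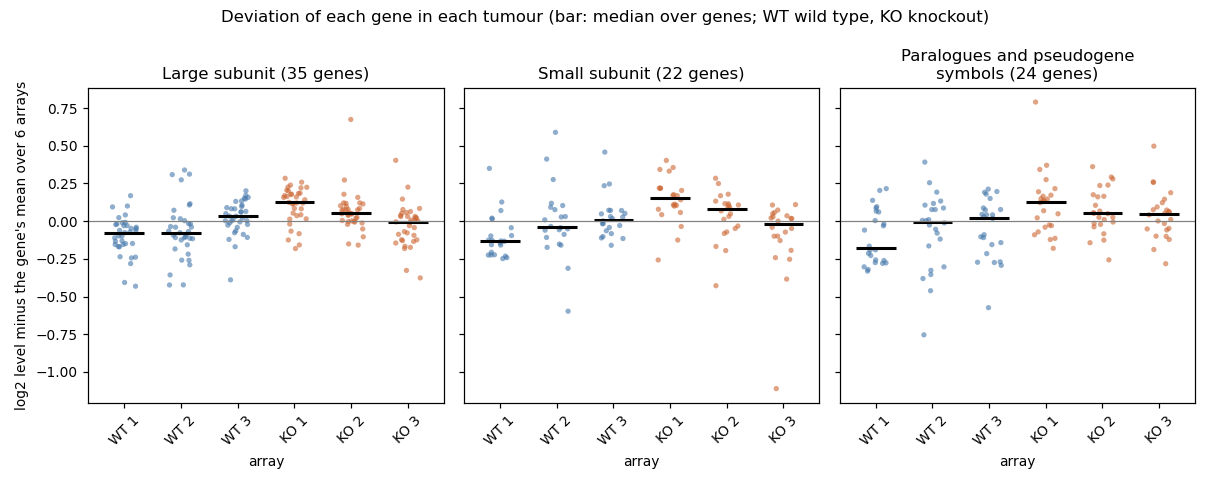
Deviation of each gene from its mean over the 6 arrays (vertical axis, log2) in each tumour, with the median over genes as a bar, for large subunit genes, small subunit genes and the paralogues with pseudogene symbols. In the small subunit the bar is lowest in wild type replicate 1 (-0.13) and highest in knockout replicate 1 (0.16), in the large subunit wild type replicates 1 and 2 are level at -0.08, and knockout replicate 3 lies near 0 in both subunits.

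In the large subunit the 5 genes with the smallest p were all higher on average in knockout tumours, and 0 of them passed. Rpl3 (feature 17533413), whose protein reaches to the peptidyl transferase centre, had levels of 11.21, 11.22 and 11.60 in wild type and 11.46, 12.32 and 12.05 in knockout tumours. Its change was 0.60 (SE 0.22, limma adjusted p = 0.298), and knockout replicate 1 lay below wild type replicate 3. Rpl27a, a large subunit protein gene with the longest start run shown above, had 6.19, 6.56 and 6.48 in wild type and 6.84, 6.70 and 6.83 in knockout tumours. All knockout values were the higher, with a change of 0.38 (SE 0.12, adjusted p = 0.236).

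Rpl27 had levels of 11.17, 11.04 and 11.28 in wild type and 11.51, 11.48 and 11.33 in knockout tumours. Rpl7 had 11.49, 11.66 and 11.67 in wild type and 11.96, 11.80 and 11.82 in knockout tumours. In both genes the groups stood apart by little, with changes of 0.28 (SE 0.10, limma adjusted p = 0.299) and 0.25 (SE 0.10, adjusted p = 0.312). Rpl34 was singled out after its values were seen. Among the features that stood for large subunit genes, its feature alone had all knockout values below the wild type values (change -0.25, SE 0.11, adjusted p = 0.373). Dimmer features of Rpl4 and Rpl13, given below, also did.

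The large subunit genes at 3 functional sites were fixed as lists. In the stalk that recruits elongation factors, Rplp0, Rplp1 and Rplp2 had changes of -0.23, 0.02 and 0.02, and Rpl12 had no feature of its own. Dimmer features of Rplp0 and Rplp1 had changes of 0.07 and 0.18, and the groups overlapped in every feature of both genes. Of 7 measured genes around the exit of the peptide tunnel 5 had positive changes, with a median of 0.14, and Rpl4, which lines the tunnel, lay between 13.41 and 13.51 in all 6 tumours in its brighter feature. Its dimmer feature read 9.10, 9.37 and 9.06 in wild type and 8.80, 9.003 and 8.48 in knockout tumours, with every knockout value the lower (change -0.42, SE 0.15, limma adjusted p = 0.272 over features), and the mean of both features changed by -0.19. Rpl5 and Rpl11, which with an rRNA form the particle that can bind Mdm2 and free p53, had changes of 0.00 (95% interval -0.21 to 0.21) and 0.11 (SE 0.11, limma adjusted p = 0.725). Rpl5 had levels of 9.03, 9.06 and 9.14 in wild type and 8.998, 9.159 and 9.090 in knockout tumours, and the groups overlapped fully.

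In the small subunit Rps18 departed most. Rps18 (feature 17547769, chromosome 17), a protein of the subunit's head, had levels of 9.37, 9.61 and 9.48 in wild type and 9.16, 8.59 and 7.91 in knockout tumours. The knockout tumours were all lower, and their spread was wide (SD 0.63 against 0.12, n = 3 each). The change of -0.93 (SE 0.28) did not pass (limma adjusted p = 0.228), and it was -0.61 without knockout replicate 3 and -1.24 without knockout replicate 1.

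Rps26, a protein at the exit of the mRNA channel, had levels of 12.43, 11.93 and 12.56 in wild type and 12.88, 12.78 and 12.58 in knockout tumours. The groups did not overlap, but knockout replicate 3 and wild type replicate 3 nearly met, and the change was 0.44 (SE 0.17, limma adjusted p = 0.319). Without wild type replicate 2, the lowest array, it was 0.25. Rps3a1 (change 0.26, SE 0.11, adjusted p = 0.364), Rps10 (0.22, SE 0.10, adjusted p = 0.402) and Rps28 (0.25, SE 0.13, adjusted p = 0.432) were the other small subunit genes with the smallest p. In Rps3a1 and Rps10 the knockout values all lay above the wild type values, and in Rps28 the groups overlapped. A dimmer feature of Rps3a1 went the other way, with overlapping groups (change -0.52, SE 0.26, limma adjusted p = 0.410 over features).

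Of the 5 genes listed for the entry and exit of the mRNA channel, Rps3, Rps14, Rps26 and Rps28 were measured and all 4 had positive changes, from 0.09 to 0.44. Rps6, the small subunit protein phosphorylated by S6 kinases, had levels of 13.37, 13.33 and 13.57 in wild type and 13.58, 13.61 and 13.55 in knockout tumours. Wild type replicate 3 lay among the knockout values, and the change was 0.16 (SE 0.10, limma adjusted p = 0.531). Rps19, the first gene linked to Diamond-Blackfan anaemia, had 11.74, 11.71 and 12.11 in wild type and 12.04, 11.92 and 11.67 in knockout tumours. Its groups overlapped over their full range, with a change of 0.02 (95% interval -0.31 to 0.36). Of the 14 measured genes of that anaemia, in which ribosomal protein loss stops red cell formation, 12 had positive changes with a median of 0.08, and 0 passed.

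The X-linked members were read against the sex difference between the groups. Rpl39, a short protein of the peptide tunnel, had levels of 7.41, 7.11 and 7.47 in wild type and 7.70, 7.52 and 7.62 in knockout tumours. All knockout values were higher, by 0.28 on average (SE 0.12, limma adjusted p = 0.346). Rps4x had 12.05, 12.35 and 12.24 in wild type and 12.35, 12.27 and 12.27 in knockout tumours, and its groups overlapped (change 0.09, SE 0.10, adjusted p = 0.766). The 905 genes of the X chromosome had a median change of 0.03, and the part of sex in either gene's value was not tested.

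**Figure D3:**
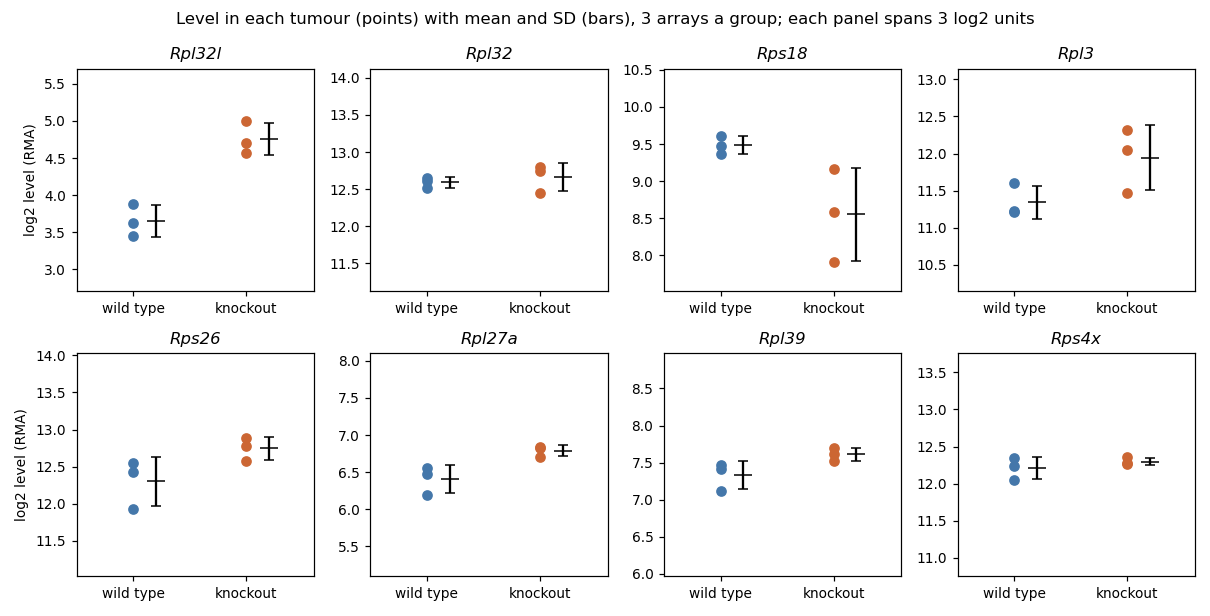
Log2 level (vertical axis, RMA) of 8 members in each wild type and knockout tumour, as points, with the group mean and SD, each panel spanning 3 log2 units. Rpl32l is higher in all knockout tumours at a low level, its parent-named gene Rpl32 is not, and Rps18 spreads from 7.91 to 9.16 within the knockout group.

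Rpl32l was the member that rose. This gene on chromosome 10 (feature 17231944), named for its likeness to Rpl32, had levels of 3.88, 3.45 and 3.63 in wild type and 5.00, 4.57 and 4.70 in knockout tumours. All knockout values lay above all wild type values, and the change was 1.10 (SE 0.15, limma adjusted p = 0.0476), or 2.14-fold. All 6 values lay within or below the range of the absent transcripts, up to 5.74, so that the rise was measured at a level where the array does not separate a weak transcript from none. It no longer passed when any wild type array was left out (adjusted p = 0.0989, 0.152 and 0.0663 for leaving out replicates 1, 2 and 3) or when knockout replicate 1 (0.123) or 3 (0.175) was. Rpl32 itself, a large subunit protein gene, had 12.65, 12.51 and 12.61 in wild type and 12.79, 12.74 and 12.44 in knockout tumours, with overlapping groups (change 0.07, SE 0.12, adjusted p = 0.846).

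The 24 paralogues and pseudogene symbols had 16 positive changes, with a median of 0.12. An unadjusted p under 0.05 was reached by 5 of them (20.8%, against 13.8% of all genes), all higher in knockout tumours (7.24% of all genes), and 7 had a mean level below the highest absent value. Many read nearly the same sequence as a canonical gene, and their values are uncertain as to which copy they measure. Rps12-ps24 had levels of 8.12, 7.93 and 8.42 in wild type and 8.57, 8.67 and 8.65 in knockout tumours. Its groups stood apart, with a change of 0.47 (SE 0.13, limma adjusted p = 0.204).

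Rpl6l, a copy of Rpl6, had 11.76, 11.60 and 11.97 in wild type and 12.12, 11.99 and 12.11 in knockout tumours, a change of 0.30 (SE 0.11, limma adjusted p = 0.313). Rps15a-ps6 had 8.06, 7.59 and 7.70 in wild type and 8.12, 8.26 and 8.09 in knockout tumours. Its knockout values were all higher, but knockout replicate 3 nearly met wild type replicate 1, and the change was 0.38 (SE 0.13, adjusted p = 0.291). Rpl31-ps20 had 12.193, 12.118 and 12.498 in wild type and 12.696, 12.526 and 12.495 in knockout tumours. Here the groups overlapped, with a change of 0.30 (SE 0.12, adjusted p = 0.340).

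Of the 9 pairs of a ribosomal protein gene and its diverged paralogue, 7 had both measured. Rpl22, a large subunit protein that also binds RNA outside the ribosome, had a change of 0.03 (SE 0.10), and Rpl22l1, which can take its place, had -0.13 (SE 0.14). Rpl39l, a paralogue known from the testis, had levels of 6.59, 6.43 and 6.96 in wild type and 6.83, 6.84 and 7.04 in knockout tumours, and the groups overlapped (change 0.24, SE 0.15). Rpl3l, the muscle paralogue of Rpl3, had a change of -0.06 (SE 0.13). Rps27 and Rps27l had 0.00 and -0.01, Rps4x and Rps4l 0.09 and 0.04, and Rpl7 and Rpl7l1 0.25 and 0.16, and none of these genes passed the threshold.

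Features of the same gene did not always agree. Of the 24 members with several features, 10 had features whose changes differed in sign, and 4 (Rps18, Rps9, Rpl13 and Rps3a1, named after their values were seen) had features more than 0.5 apart. Of the 64 features of these genes 0 passed the threshold (limma, adjusted over 23521 features, 0.221% of which passed), and 12 had an unadjusted p under 0.05 (14.7% of all features). The other features of Rps18 had changes of 0.25 and 0.08 at lower brightness, and the mean of its 3 features changed by -0.20, so that the value of -0.93 belongs to 1 feature. Of the 64 features 10, of Rps12, Rpl23a and Rps19, held values identical to another feature of the same gene.

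Rpl13, a large subunit gene, had a change of -0.01 in its brighter feature. Its dimmer feature read 9.75, 9.91 and 9.48 in wild type and 8.85, 8.97 and 8.57 in knockout tumours, with every knockout value below every wild type value and a change of -0.91 (SE 0.15, limma adjusted p = 0.0677 over features). The dimmer feature of Rps9, a small subunit gene, read 9.68, 9.63 and 8.55 in wild type and 8.46, 8.64 and 7.84 in knockout tumours. Here wild type replicate 3 lay among the knockout values, and the change was -0.97 (SE 0.33, adjusted p = 0.235) against 0.08 in the brighter feature.

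Rpl3 gave the same direction in each of its 3 features, with changes of 0.26, 0.49 and 0.60. The middle one read 9.41, 9.23 and 9.61 in wild type and 9.95, 9.94 and 9.83 in knockout tumours, without overlap (SE 0.12, limma adjusted p = 0.132 over features). Both features of Rpl27 were higher on average in knockout tumours (0.30 and 0.28), as were both of Rps28 (0.25 each). The second feature of Rps26 had a change of 0.40, but its values, from 4.94 to 5.71, all lay within the range of the absent transcripts. The dimmest feature of Rpl3, with the change of 0.26, lay at 5.57 to 6.49, partly within that range.

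**Figure D4:**
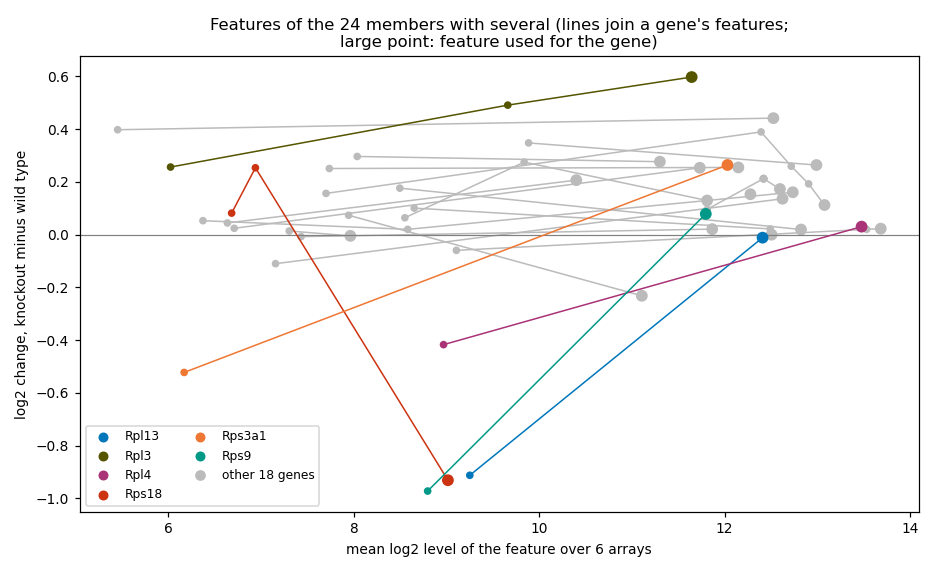
Log2 change, knockout minus wild type (vertical axis), of each feature against its mean log2 level over 6 arrays (horizontal axis), for the 24 members with several features, lines joining features of 1 gene and larger points marking the feature used. Features of Rps18, Rps9 and Rpl13 reach below -0.9 while others of the same genes lie near 0.

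Genes that act with ribosomal proteins were taken from fixed lists, and 0 passed the threshold in each. Rpsa and Fau, which encode small subunit proteins under other names, had changes of 0.11 and 0.02. Of 19 translation factors and related genes whose mRNAs also carry TOP tracts, 12 had positive changes (median 0.03), with 1 higher and 3 lower at an unadjusted p under 0.05 (21.1% in all, against 13.8% of all genes, 7.24% higher and 6.51% lower). Tpt1, the translationally controlled tumour protein, had levels of 11.41, 11.48 and 11.39 in wild type and 11.04, 10.78 and 10.40 in knockout tumours. Its knockout values were all lower, by -0.69 on average (SE 0.16, limma adjusted p = 0.152). Eif4a2, a translation initiation factor gene, was the 1 that was higher (change 0.28, SE 0.09, adjusted p = 0.237). All of its knockout values lay above the wild type values. Rpsa, Fau and Tpt1 had 2 features each and Eif4a2 had 3, and these values are those of the brightest.

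Of 35 ribosome biogenesis genes 25 had positive changes (median 0.07), with the smallest p in the rRNA processing factor Rrp12 (0.29, limma adjusted p = 0.235). The 15 RNA polymerase I genes, which make the precursor of rRNA, had 9 positive changes (median 0.02), and the initiation factor gene Ubtf had -0.40 (adjusted p = 0.247). Cd3eap, of the same list, had -0.30 (adjusted p = 0.231). Among 16 genes of mTORC1, MYC and LARP control 9 changes were positive (median 0.05), with 2 higher and 1 lower at an unadjusted p under 0.05. These made up 18.8% of the list, against 13.8% of all genes (7.24% higher and 6.51% lower). Mycn had -0.39 (adjusted p = 0.202) and Larp4, a La-related RNA-binding protein, 0.32 (adjusted p = 0.238). The largest change of that list, picked out after its values were seen, was 0.98 (SE 0.36, adjusted p = 0.298) in Eif4ebp1, the translation repressor that mTORC1 inactivates, and its groups overlapped. Of 9 genes of the p53 response to ribosomal stress 7 had negative changes (median -0.25). They included the cell cycle inhibitor Cdkn1a (-0.80, adjusted p = 0.184) and the pro-apoptotic gene Bbc3 (-0.61, adjusted p = 0.127). The 71 genes of the mitochondrial ribosome, which is built from separate proteins, had 47 positive changes and a median of 0.06, against 0.09 for the canonical cytosolic genes.

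Levels of several cell type marker lists differed between the groups on average, and their part in the ribosomal protein values was not tested. In each list 0 markers passed the threshold. Progenitor markers had 10 of 12 negative changes (median -0.33), with a summed level (log2 of the sum over the list) of 14.74 to 14.93 in wild type and 14.53 to 14.69 in knockout tumours. Microglia and macrophage markers had 11 of 12 negative changes (median -0.33), with summed levels of 13.52 to 13.69 and 13.03 to 13.41. Markers of Purkinje cells and inhibitory neurons were all 8 positive (median 0.60), at 9.70 to 10.70 in wild type and 10.50 to 11.93 in knockout tumours. Astrocyte markers had 9 of 10 positive changes (median 0.42), at 13.53 to 14.55 and 14.38 to 14.46. Of 8 mature granule neuron markers 5 had positive changes (median 0.38), running from -1.13 (Neurod1) to 2.72 (Gabra6). Their summed levels were 12.05 to 12.27 in wild type and 11.90 to 12.88 in knockout tumours. Of 9 oligodendrocyte lineage markers 7 had negative changes (median -0.17), running from -0.69 (Sox10) to 0.91 (Mobp). Medians were -0.29 for 7 lymphocyte markers (6 negative) and 0.13 for 8 of fibroblasts (6 positive). They were 0.04 for 10 of endothelium (6 positive) and -0.03 for 2 of blood cells (1 positive).

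**Figure D5:**
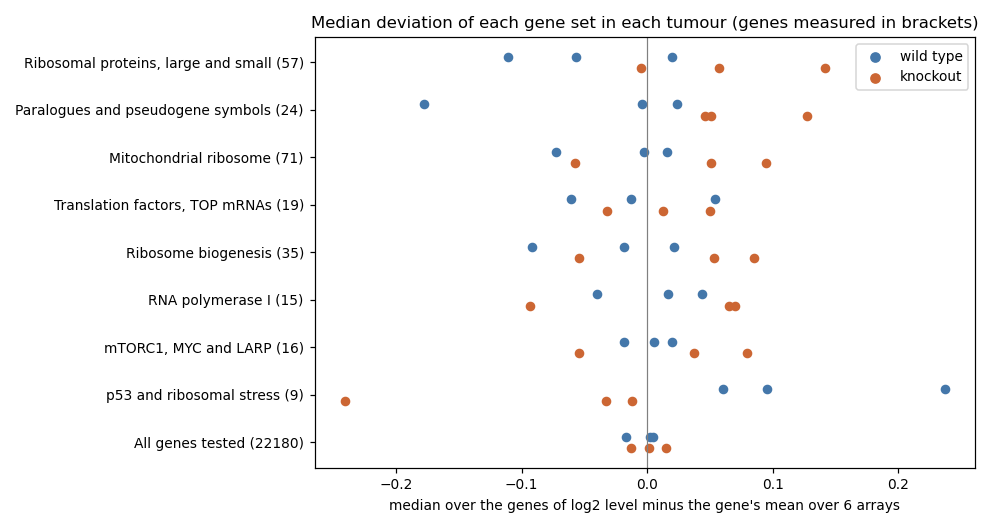
Median deviation of each gene list from its genes' means (horizontal axis, log2) in each of the 3 wild type and 3 knockout tumours, with the number of genes measured in each list. Canonical ribosomal protein genes overlap between the groups, from -0.11 to 0.02 in wild type and -0.00 to 0.14 in knockout tumours.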

How the data were processed

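Gene expression was measured in 6 mouse medulloblastomas, 3 wild type and 3 knockout for Crebbp, on Affymetrix arrays. The authors deposited log2 values that RMA in the oligo software had produced (named in the submitters' processing notes, without a version). RMA sets the probe values of the arrays to one distribution, so a shift shared by most genes would not be seen. The deposited values still differed a little between arrays, with medians from 6.914 to 7.002. Brightness differs between features for reasons other than RNA amount, so a level relative to the absent scale or to the split by level is approximate. The deposited table held 41345 features, of which 23521 had 1 platform symbol, 1814 several and 16010 none, and 99.2% of those with 1 symbol matched a RefSeq gene. The feature with the highest mean stood for each of 22180 genes.

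Knockout and wild type arrays were compared by two-sided tests of limma (version 3.58.1, functions lmFit and eBayes, run under R 4.3.3). P-values were adjusted over all genes by Benjamini-Hochberg, 0.05 was the threshold, and 95% intervals came from the same fit. Tested on simulated data (22180 genes, 200 changed, 5 draws), the fit recovered 24.8% of changes of 0.5, 71.6% of 1 and 96.7% of 2 on the log2 scale, and 4.61% of its calls were false. Values were given for members past the threshold, the 5 of each class with the smallest p, X-linked members, Rpl5, Rpl11, Rps19, Rps6, Rpl22 and paralogue pairs. The members and lists were chosen with earlier results of these data known, and the mitochondrial ribosome list and the split by level were added after seeing the data. Alternatives were other array scalings, a filter on dim genes, other variance models and array weights, the mean of a gene's features, the replicate number as a block, another threshold, no X and Y genes, and each array left out. Start windows came from RefSeq tables of GRCm38.p6. The array's own build is not given in the sources used here. Features with several symbols were left out because they name no single gene.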

Additional observations from a re-analysis of the deposited data

How the results depend on the processing

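The count of members past the threshold, 1 in all arrays, was 0 after a further quantile normalisation, without the dimmest 50% of genes and without X and Y genes, and 0 to 1 when each array was left out. The count over all genes, 46 in all arrays, was 137 with a trended and robust variance and 131 at an adjusted p of 0.1, and 4 to 128 when each array was left out (12, 18 and 99 on leaving out wild type replicates 1, 2 and 3, and 15, 128 and 4 on leaving out knockout replicates 1, 2 and 3). With the replicate number as a block it was 12. The numbers do not pair the tumours by any label, and deviations of same-numbered tumours correlated at -0.03, 0.05 and 0.10. The block left Rpl32l past the threshold (adjusted p = 0.0489). The count of canonical genes with a negative change, 11 in all arrays, was 20 with array medians set equal, 17 after a further quantile normalisation and 7 to 20 when each array was left out (20 without knockout replicate 1 and 7 without knockout replicate 3). The cause of these shifts was not tested. Setting medians equal moved the median change of all genes to -0.02. The median changes of canonical, large subunit, small subunit and paralogue genes kept their direction, within the spread between replicates, under the alternatives run. Of 498 combinations of 34 named members and 15 alternatives, 458 kept direction and side of the threshold, 33 changed sign without a call (11 members, of at most 0.26 in size), 7 lost the call of Rpl32l and 0 reversed a call. The change of Rpl32l ran from 0.98 to 1.21. The filter on dim genes removed Rpl32l, so it gave no value there. Brightness near that of absent transcripts limits what can be said of 7 of the 24 paralogues and pseudogene symbols.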

Other observations

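A further 59 features carried several symbols, 1 of them a ribosomal protein symbol, and entered no comparison because they cannot be given to a single gene. Of these 45 had a positive change and 14 a negative one, with a median of 0.11 and a range from -0.53 to 0.54. They are the only measurements here for 12 canonical genes, among them Rpl10, Rpl12, Rpl13a, Rpl23, Rpl24 and Rps2.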
